A study of Mus musculus with 6 samples.

Results

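The imprinted Dlk1-Meg3 locus of mouse chromosome 12 was described here through 7 genes, out of 43629 rows in each of the 6 count files. The members were named by symbol and matched by Ensembl identifier. They comprised the maternally expressed noncoding RNAs Meg3, Rian and Mirg, the paternally expressed coding genes Dlk1, Rtl1 and Dio3, and Begain, which lies at the Dlk1 end of the locus. They were chosen by their place in the locus and by their measured fold changes between DNMT1 siRNA and negative siRNA, which were already known, so their values in that comparison are given as a description, without a p-value. All 7 had a row in the files, and 6 passed the filter on low counts, Dio3 being the exception.

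Imprinted genes are transcribed mainly from the chromosome inherited from one parent. DNA methylation set in the germ line marks the parental copies, and DNMT1 copies that methylation onto the new strand when DNA is replicated. At this locus a methylated intergenic control region on the paternal chromosome accompanies expression of Dlk1, Rtl1 and Dio3 there. On the maternal chromosome, where the region is unmethylated, a long run of noncoding RNAs is made from the other side of it. These include Meg3, the C/D box snoRNA host Rian and the microRNA host Mirg. Methylation and parental origin were not measured in these libraries.

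Cardiomyocytes came from ventricles of CD-1 mouse embryos at embryonic day 13.5, with the ventricles of a litter pooled. After 48 h in culture they received 12 nM of either AllStars negative control siRNA ("negative siRNA") or a pool of 4 siRNAs against DNMT1 ("DNMT1 siRNA") with lipofectamine RNAiMAX. Cells were collected 72 h later, sorted magnetically for VCAM1, and sequenced as poly(A) RNA, in 3 samples per treatment. The labels give no engineered allele in either group, and both were transfected, so the siRNA was the only stated difference between them. Whether the cell preparations also differed between the groups is not stated.

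Dnmt1, the targeted gene, had normalized counts of 3446, 2759.5 and 2878 with negative siRNA and of 772, 786 and 666 with DNMT1 siRNA. The log2 fold change was -2.03 ± 0.11 (SE, adjusted p = 0.000192, edgeR's quasi-likelihood test with Benjamini-Hochberg adjustment). A treatment label on the knockdown samples reads DNMT3a instead, whereas their titles name DNMT1. Dnmt3a stood at 5453 ± 509.8 in the negative group and at 6425 ± 73.9 in the DNMT1 siRNA group (SD, n = 3, adjusted p = 0.0919), so the targeted transcript was low in the libraries whose titles name it.

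Between 27852412 and 35896018 reads per negative siRNA library were counted on genes, against 13739561 to 16186310 with DNMT1 siRNA. Reads outside annotated exons made up 16.4% ± 1.58 of the negative libraries and 29.3% ± 4.23 of the DNMT1 siRNA libraries (SD, n = 3, exact permutation test, two-sided p = 0.1, the smallest that 3 against 3 allow). RNAs that lack a poly(A) tail, counted from a list of 5, rose in all 4 that could be tested, with log2 fold changes of 3.29 for Rn7sk up to 4.33 for Rprl3. Their part in the results below was not tested. The labels do not say whether replicate numbers pair the samples. Separate litters or cultures are not stated for the replicates either, so the spread between them may be partly technical.

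The defining markers of cardiomyocytes were all detected, and 9 of 12 rose with DNMT1 siRNA, a count that ranged from 5 to 12 when 1 library was left out, with 12 without negative siRNA replicate 2 and 5 without DNMT1 siRNA replicate 2. Fibroblast markers had the larger sum in every library. Their summed normalized counts lay between 790789 and 1216562 with negative siRNA, against 49938 to 66318 for the cardiomyocyte list. The collagen genes Col1a1, Col1a2 and Col3a1 made up 96.2% of the fibroblast sum with negative siRNA, and the other 7 genes, a split made after the values were seen, summed to 34358 to 38169, below the cardiomyocyte list. In bulk RNA, fewer cells of a type and less RNA per cell cannot be told apart. At this dose and time the paper counted an unchanged percentage of cardiomyocytes by staining, with a larger stained area per cardiomyocyte. That staining was of cultures, whereas the cells sequenced here had been sorted. Earlier flow cytometry that it cites found most sorted cells to be cardiomyocytes. Neither was measured in these libraries.

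Meg3 and Dlk1, the maternally and paternally expressed genes on either side of the control region, moved in opposite directions. Of the 6 members tested, 1 rose and 1 fell past both limits used throughout, an FDR below 0.05 and a fold change above 1.5. Over all 15470 genes tested the same limits called 6.49%, with 4.26% higher and 2.23% lower. Since the members were chosen with this comparison known, nothing is read from their count. The normalized counts of the groups did not overlap for 3 members, a pattern shown by 36.0% of all genes tested. The median log2 fold change was 0.01 over the 6 members and -0.0049 over all genes tested.

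Meg3 (ENSMUSG00000021268, GRCm38 chr12:109541001-109571726, plus strand) is a long noncoding RNA that is kept largely in the nucleus. Its normalized counts were 12014, 10949.8 and 16378 with negative siRNA and 19697, 22773 and 18440.2 with DNMT1 siRNA. All 3 DNMT1 siRNA libraries lay above all 3 negative siRNA libraries, with the highest negative library, replicate 3, close to the lowest DNMT1 siRNA library. The mean went from 13114 ± 2876 to 20303 ± 2229 (SD, n = 3), a log2 fold change of 0.63 ± 0.15 (SE) or 1.55-fold, just past the limit on fold change. Leaving out 1 library gave between 0.52, without negative siRNA replicate 2, and 0.82, without negative siRNA replicate 3. Meg3 passed both limits in only 1 of these 6 fits, the one without negative siRNA replicate 3, and lost its call when any other library was removed.

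Dlk1 (ENSMUSG00000040856, chr12:109452823-109463336, plus strand) encodes a membrane protein of the Delta-like family that is abundant in embryonic mesenchyme and restrains adipocyte differentiation. With negative siRNA its normalized counts were 3598, 7795 and 4866, and with DNMT1 siRNA they were 2779.8, 2376 and 2506. The groups did not overlap, but the negative libraries differed from one another by up to 2.17-fold while the DNMT1 siRNA libraries differed by up to 1.17-fold. The mean went from 5419.95 ± 2153 to 2554 ± 206 (SD, n = 3), a log2 fold change of -1.09 ± 0.24 (SE), or 2.12-fold lower. The coefficient of variation was 39.7% in the negative group and 8.07% after knockdown. Such a narrowing was not particular to Dlk1, as Igf2 had 71.8% and 5.95%, though Kcnq1ot1 had 12.4% and 21.0%. Without negative siRNA replicate 2, the highest library, the log2 fold change of Dlk1 was -0.73 and the gene still passed both limits. Without DNMT1 siRNA replicate 1, 2 or 3 it was -1.17, -1.04 and -1.09, and the call was lost each time.

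**Figure D1:**
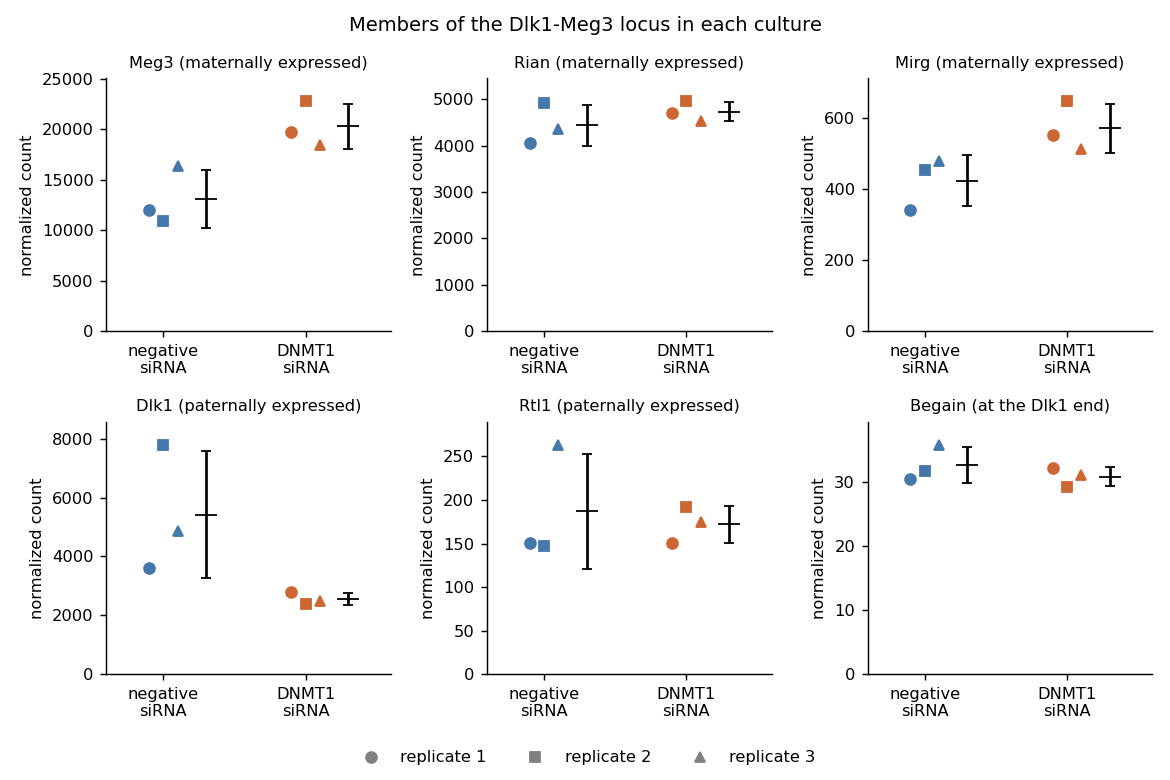
Normalized counts (y axis, from 0) of the 6 tested members in 3 negative siRNA (blue) and 3 DNMT1 siRNA (orange) libraries, with the marker shape giving the replicate and the black bar the mean ± SD. The groups stand apart for Meg3, Mirg and Dlk1 and overlap for Rian, Rtl1 and Begain, and negative siRNA replicate 2 has the highest Dlk1 (7795) and the lowest Meg3 (10949.8).

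**Figure D2:**
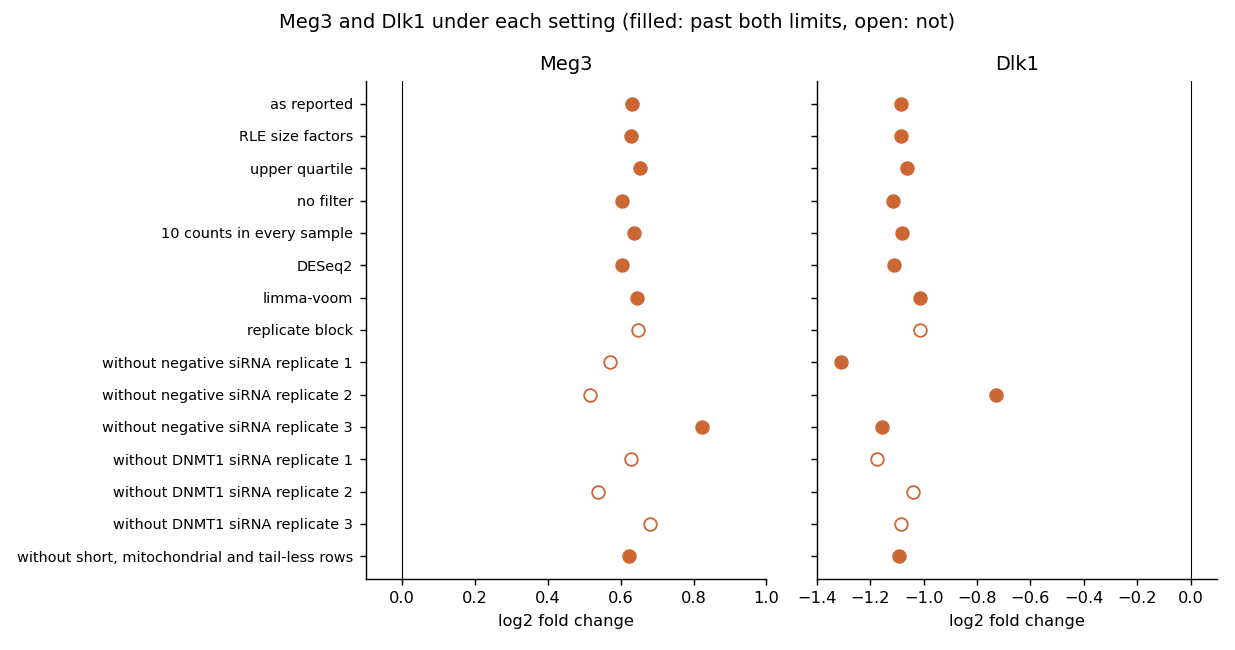
Log2 fold change (x axis) of Meg3 and Dlk1 as reported and under 14 other settings (y axis), filled where both limits were passed and open where not. Meg3 lies between 0.52 and 0.82 and is filled in 8 of 14 settings, and Dlk1 lies between -1.31 and -0.73 and is filled in 10 of 14.

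The windows upstream of these 2 genes are shown because DNMT1 acts on CpG sites, and both genes passed the limits. They are the 250 bases before a RefSeq start on the plus strand (GRCm38.p6), the first of 2 starts for Meg3, at chr12:109540746-109540995 for Meg3 and chr12:109452573-109452822 for Dlk1. Capitals mark CG dinucleotides.
Meg3: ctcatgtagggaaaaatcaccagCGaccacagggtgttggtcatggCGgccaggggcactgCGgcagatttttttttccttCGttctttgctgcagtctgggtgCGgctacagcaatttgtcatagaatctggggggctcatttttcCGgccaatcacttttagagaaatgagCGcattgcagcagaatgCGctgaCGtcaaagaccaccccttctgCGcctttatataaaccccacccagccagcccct
Dlk1: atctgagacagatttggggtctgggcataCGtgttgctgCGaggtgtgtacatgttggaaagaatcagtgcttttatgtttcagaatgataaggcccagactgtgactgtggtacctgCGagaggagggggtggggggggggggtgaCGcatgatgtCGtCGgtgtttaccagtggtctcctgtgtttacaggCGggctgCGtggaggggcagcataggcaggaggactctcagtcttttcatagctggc
The Meg3 window held 10 CG dinucleotides and the Dlk1 window 8, against a median of 6 over 32851 windows of equal length. As many were held by 37.8% and 43.0% of windows. The second Meg3 start, with its window at chr12:109545148-109545397, held 0 CG dinucleotides and 0 matches to the motif below. Among members that were not called the number ran from 0 for Rian and 10 for Mirg to 21 for Dio3 and between 22 and 37 for the 5 Begain windows. The called and uncalled members with a window thus did not separate by it. Rtl1 had no window, and the Mirg window, at chr12:109734731-109734980, lies inside the Mirg gene as positioned here. The letters TGCCGC, the core recognised by the imprint-protecting factor ZFP57 when methylated, occurred 1 time in the first Meg3 window and 0 times in the Dlk1 window, both strands searched. They were present in 8.68% of all windows, and each match includes a CG. These matches are descriptions, since neither methylation nor binding was measured.

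Rian and Mirg are transcribed from the same strand downstream of Meg3. Rian (ENSMUSG00000097451, chr12:109603940-109661716) hosts snoRNAs of the C/D box class. It had 4048, 4912 and 4358 normalized counts with negative siRNA and 4700.0, 4953 and 4537 with DNMT1 siRNA. The groups overlapped, and the log2 fold change was 0.09 ± 0.08 (SE), with means of 4439 ± 438 and 4729.96 ± 209.7 (SD, n = 3).

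Mirg (ENSMUSG00000097391, chr12:109729764-109749460) hosts a large microRNA cluster. Its normalized counts were 341, 453 and 478 with negative siRNA and 554, 647 and 514 with DNMT1 siRNA. Every DNMT1 siRNA library was above every negative library, but the log2 fold change of 0.43 ± 0.15 (SE) was under the limit on fold change. Across 14 other fits it ranged from 0.30 to 0.53 and was never called.

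Ratios between members of the same library do not depend on its size. Reads of Meg3 per read of Dlk1 were 3.34, 1.40 and 3.37 with negative siRNA and 7.09, 9.58 and 7.36 with DNMT1 siRNA. On the log2 scale the mean went from 1.33 ± 0.725 to 2.99 ± 0.24 (SD, n = 3), a difference of 1.66 ± 0.44 (SE). Without negative siRNA replicate 2, in which Dlk1 was highest and Meg3 lowest, the difference was 1.24. The ratio was higher in all 3 DNMT1 siRNA libraries than in any negative library.

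Among the noncoding RNAs, Meg3 per read of Rian was 2.97, 2.23 and 3.76 with negative siRNA and 4.19, 4.60 and 4.06 with DNMT1 siRNA. The mean log2 ratio was higher by 0.55 ± 0.22 (SE) and the groups did not overlap. The ratio of Mirg to Rian was also higher in every DNMT1 siRNA library, by 0.34 ± 0.13 on the log2 scale. The ratio of Meg3 to Mirg overlapped between the groups (difference 0.208 ± 0.175, SE), and among the DNMT1 siRNA libraries it varied by an SD of only 0.015. The neighbouring noncoding RNAs thus differed in how far they moved, with Rian moving least.

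**Figure D3:**
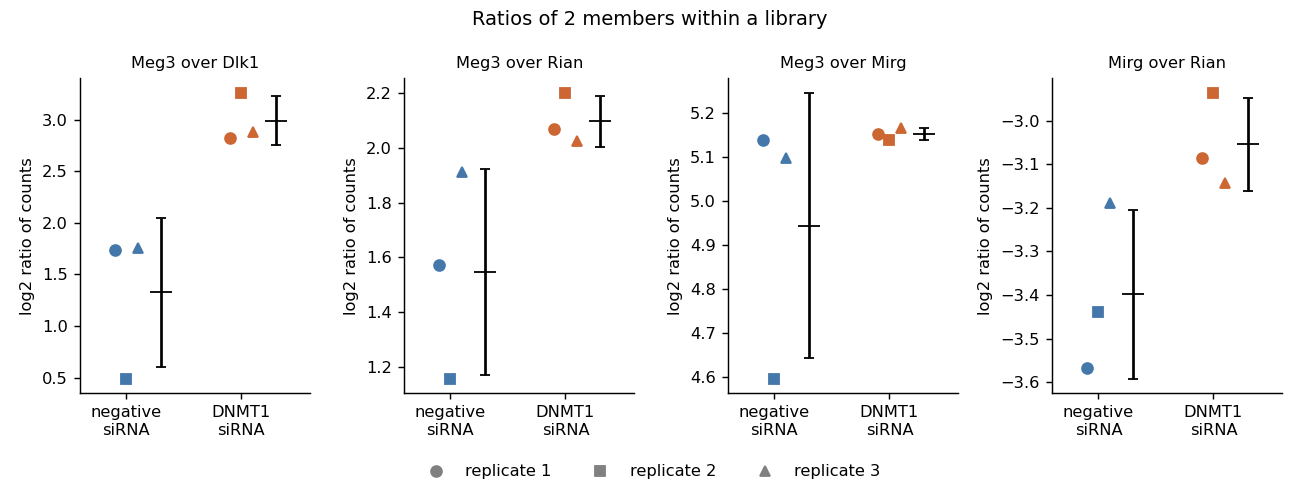
Log2 ratio of the counts of 2 members within each library (y axis, scale differs by panel and does not start at 0), for negative siRNA (blue) and DNMT1 siRNA (orange), with the mean ± SD in black and the replicate given by the marker. Meg3 over Dlk1 is between 0.49 and 1.75 with negative siRNA and between 2.83 and 3.26 with DNMT1 siRNA, whereas Meg3 over Mirg overlaps between the groups.

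Of the remaining paternally expressed members, Rtl1 was not called and Dio3 had too few counts to test. Rtl1 (ENSMUSG00000085925, chr12:109589193-109600330, minus strand) is a retrotransposon-derived coding gene needed in the placenta. Its normalized counts were 151, 147 and 264 with negative siRNA and 150.2, 192 and 175 with DNMT1 siRNA. The groups overlapped, and the log2 fold change was -0.11 ± 0.24 (SE). Its sign turned to 0.21 without negative siRNA replicate 3, the highest library, and Rtl1 was not called in any of 14 other fits. The log2 ratio of Dlk1 to Rtl1 within a library also overlapped between the groups, with a difference of -0.945 ± 0.49 (SE).

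Dio3 (ENSMUSG00000075707, chr12:110279068-110281097, plus strand) encodes the deiodinase that inactivates thyroid hormone. It had raw counts of 1, 0 and 1 with negative siRNA and of 0, 0 and 2 with DNMT1 siRNA. A limit of 3 counts corresponded to between 0.0836 and 0.218 CPM (counts scaled to library size) in these libraries, so no library rose above it and no fold change was computed. The limit covers counting error only.

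Begain (ENSMUSG00000040867, chr12:109032187-109068217, minus strand), which encodes a guanylate kinase-associated protein of the brain, had 30.3, 31.7 and 35.8 normalized counts with negative siRNA and 32.2, 29.15 and 31.1 with DNMT1 siRNA. The groups overlapped, and the log2 fold change was -0.08 ± 0.23 (SE).

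Per kilobase of exon, the order of the members with negative siRNA was Dlk1 (958 ± 380.5, SD, n = 3), Meg3 (725 ± 159), Rian (243 ± 24.0), Mirg (58.2 ± 9.99), Rtl1 (29.4 ± 10.4) and Begain (7.4 ± 0.64), in normalized counts per kb, with Dio3 last. Only the first neighbours, Dlk1 and Meg3, overlapped in their per-kb levels. With DNMT1 siRNA the first place changed, Meg3 standing at 1122 ± 123 and Dlk1 at 451 ± 36.5 without overlap. The per-kb level of Meg3 was above that of 91.6% of tested genes with negative siRNA and 95.3% with DNMT1 siRNA. For Dlk1 these shares were 94.1% and 85.5%. Exon lengths came from a newer annotation than the one used for counting, so levels between genes are approximate.

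Between the outer ends of Begain and Dio3 (chr12:109032187-110281097, 1248.91 kb) the files held 92 further rows, of which 61 were microRNA genes, 23 snoRNA genes and 8 other noncoding rows. Poly(A) libraries are poor in small RNAs, and 62 of the 92 rows had any count. Only 3 were tested and 0 were called by edgeR, with 0 at an unadjusted p below 0.05. DESeq2 and limma-voom also called 0. The 3 were Gm26945 (log2 fold change 0.13 ± 0.24, adjusted p = 0.754), Gm37899 (0.25 ± 0.27, adjusted p = 0.585) and B830012L14Rik (0.16 ± 0.25, adjusted p = 0.697, edgeR's quasi-likelihood test). All 3 values were positive but within 1 SE of 0.

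Summed over the 61 microRNA rows, normalized counts were 62.4, 95.1 and 150.1 with negative siRNA and 97.9, 138 and 98.1 with DNMT1 siRNA. The groups overlapped (means 103 ± 44.3 and 112 ± 23.4, SD, n = 3, exact permutation test, two-sided p = 0.8). The 23 snoRNA rows summed to 23.2 ± 5.15 and 23.6 ± 3.83 (SD, n = 3, exact permutation p = 0.9). With 3 libraries against 3 no p below 0.1 was possible, and both sums rested on few reads, so the test could not pass a 0.05 threshold whatever the difference.

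Some rows received no reads at all. The kit does not mark strand, and HTSeq leaves out a read that falls on exons of more than 1 gene. Of the 84 microRNA and snoRNA rows, 22 lay wholly under exons of another gene, and 21 of those had 0 counts in every library. The same was true of Gm26906, an antisense RNA under Meg3. Exon bases shared with another gene made up 8.29% of Meg3 and 8.40% of Rtl1.

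Rtl1 shows what is lost at the level of sequence. The maternal strand opposite it carries microRNAs that pair with the Rtl1 transcript without a mismatch, and 11 mature arms from 6 microRNA genes were exact complements of the 6358-base Rtl1 transcript. The 5 of these genes with a row in the files had 0 counts in all libraries. Mature sequences from RefSeq (GRCm38.p6) are given 5′ to 3′ for 1 arm of each gene, as these are the transcripts that could not be told apart from Rtl1, with the seed, bases 2 to 8, in capitals.
mmu-miR-431-5p: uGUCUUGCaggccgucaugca
mmu-miR-433-3p: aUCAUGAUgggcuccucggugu
mmu-miR-127-3p: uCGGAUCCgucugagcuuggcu
mmu-miR-434-3p: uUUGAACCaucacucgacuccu
mmu-miR-432: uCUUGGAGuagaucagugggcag
mmu-miR-136-5p: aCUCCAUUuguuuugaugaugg
The site of miR-127-3p in the Rtl1 transcript begins at base 2642 and reads as follows, in lower case throughout.
Rtl1 site: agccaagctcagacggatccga
The 6 seeds shown differ from one another. Over the whole interval, RefSeq listed 61 microRNA genes with 113 mature names and 104 different seeds, and 9 seeds were each shared by 2 names, such as GGUAGAC of miR-379-5p and miR-1193-5p and UGGAUAU of miR-376b-5p and miR-376c-5p. Since the files hold few reads on microRNA rows, the level of no mature microRNA was measured here.

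Outside the interval, the 10 nearest tested genes on each side were not called by edgeR, DESeq2 or limma-voom. Their median log2 fold change was -0.10 on the Begain side and 0.08 on the Dio3 side, against 0.63 for Meg3 and -1.09 for Dlk1. Of the 20, 5 had an unadjusted p below 0.05 with edgeR, 5 with DESeq2 and 4 with limma-voom. The closest, Wdr25 at 3.73 kb from the Begain end, was at -0.08 ± 0.23 (adjusted p = 0.846), and Wars, a tryptophan tRNA synthetase gene, at -0.40 ± 0.07 (adjusted p = 0.0113), under the limit on fold change. On the other side, Ppp2r5c was at -0.17 ± 0.08 (adjusted p = 0.204) and Dync1h1 at 0.07 ± 0.13 (adjusted p = 0.753, edgeR's quasi-likelihood test). The widest values, 0.93 for Cyp46a1 and -0.64 for Hhipl1, were not called either.

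**Figure D4:**
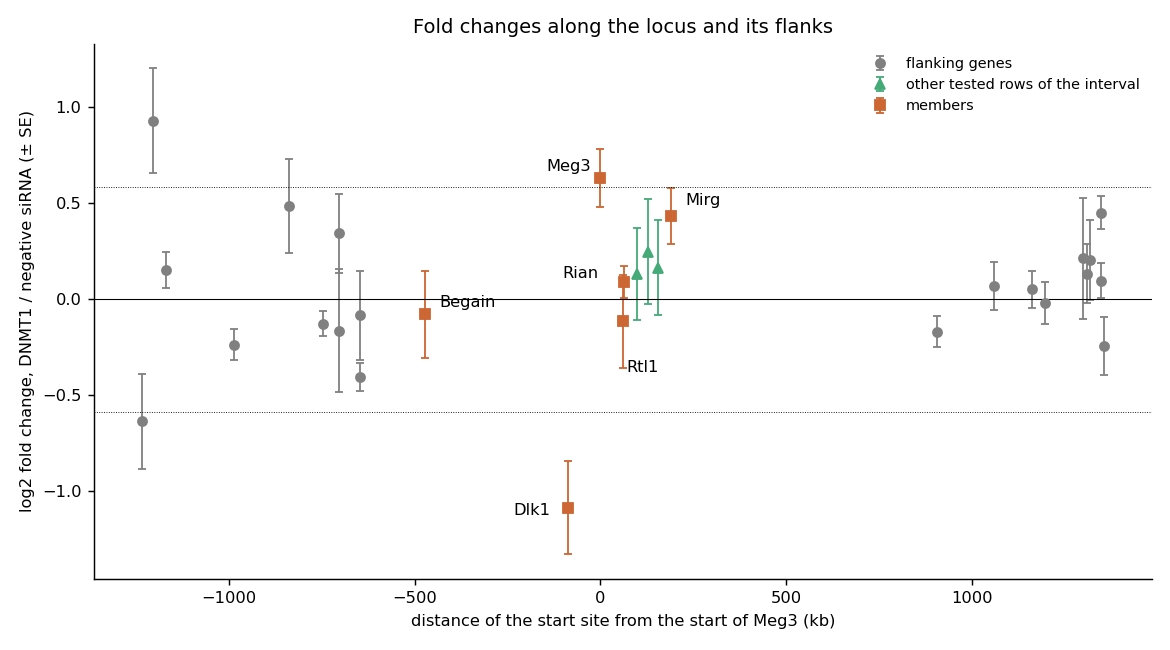
Log2 fold change with DNMT1 siRNA over negative siRNA (y axis, bars ± SE) of the 6 tested members (orange), the 3 other tested rows of the interval (green) and the 20 nearest tested genes outside it (grey), by distance of the start site from that of Meg3 in kb (x axis). Dotted lines mark a 1.5-fold change, and Meg3 (0.63) and Dlk1 (-1.09) are the members beyond them.

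Negative siRNA replicate 2 stood apart in some other transcripts too, though not in every imprinted one. Igf2 and H19, the best-known imprinted pair, had 50067 and 62270 normalized counts in it, against 12843 to 19816 and 18060 to 18372 in the other negative libraries and 11836 to 13105 and 13279 to 16701 with DNMT1 siRNA. Neither was called, at log2 fold changes of -1.17 ± 0.42 (Igf2, adjusted p = 0.107) and -1.18 ± 0.44 (H19, adjusted p = 0.120, edgeR's quasi-likelihood test). Other abundant imprinted transcripts differed less. Grb10 had 42985 in this library, against 34599 and 35650 in the other negative libraries, and Igf2r 27234, against 22286 and 20838. Peg10 was instead highest in negative siRNA replicate 1, at 4552 against 1730 and 1907. Negative siRNA replicate 2 had the highest summed fibroblast markers, 128% of the mean of the negative libraries, and the highest summed smooth muscle and pericyte markers, at 125%. It was also the highest negative library for macrophage (132%), cardiomyocyte (115%) and endothelial (105%) markers, and the lowest for epicardial markers (91.9%). Negative siRNA replicate 3 was close to it for macrophage (123%) and endothelial (104%) markers. For macrophage markers negative siRNA replicate 1 was the one apart, at 45.4%.

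Cell type markers moved between the groups beside Dlk1 and Meg3. Of 10 fibroblast genes, 4 fell (Col1a1, Col1a2, Dcn and Fbln1), and their sum was 63.5% to 67.7% of the negative mean in the DNMT1 siRNA libraries, where Dlk1 was 43.8% to 51.3%. That sum was mostly collagen, and the 7 genes other than Col1a1, Col1a2 and Col3a1 summed to 81.2% to 88.0% of their negative mean. On the log2 scale Tcf21 differed by 0.01 ± 0.09 (adjusted p = 0.976) and Thy1 by 0.36 ± 0.07 (adjusted p = 0.0137, edgeR's quasi-likelihood test), under the limit on fold change. Without negative siRNA replicate 2 the collagen genes were no longer called and 2 fibroblast genes fell, Dcn and Fbln1, and without DNMT1 siRNA replicate 1, 2 or 3 the count was 2, 1 and 1. The cardiomyocyte sum was 203% to 249% and Meg3 141% to 174%. Endothelial markers had 2 of 8 rise by edgeR (Emcn and Kdr) and 4 by DESeq2, and a sum of 135% to 139%. The largest in that sum were Eng and Flt1, both uncalled, with negative siRNA means of 3851 and 1833 normalized counts. Tek alone had a negative value (-0.35 ± 0.09, SE, adjusted p = 0.0373, edgeR's quasi-likelihood test), under the limit on fold change. By edgeR, 5 rose without negative siRNA replicate 2 and 0 without negative siRNA replicate 3 or any DNMT1 siRNA library. Of the 8 smooth muscle and pericyte genes 1, Pdgfrb, fell, with a sum of 70.5% to 73.5%. The largest in that sum were Acta2 and Tagln, with negative siRNA means of 80679 and 46752 normalized counts. Rgs5 (log2 fold change 1.10 ± 0.40, SE), Abcc9 (0.76 ± 0.31) and Cspg4 (0.04 ± 0.13) had positive values, uncalled by edgeR. The other genes of the list had negative ones. DESeq2 also called Rgs5 higher. Without negative siRNA replicate 1, edgeR called Rgs5 higher and Cnn1 and Myh11 lower. It called Acta2 and Tagln lower without negative siRNA replicate 3. Of 8 epicardial genes 1, Krt19, fell, with a sum of 106% to 111%. Pdgfrb was not called without negative siRNA replicate 3 or DNMT1 siRNA replicate 2, nor Krt19 without negative siRNA replicate 3 or any DNMT1 siRNA library. Of 7 tested macrophage genes edgeR called 0, with 4 at an unadjusted p below 0.05, while DESeq2 called 4 and limma-voom 0. Their sum was 39.1% to 66.1%. No listed marker was at 0 in any library, although macrophage genes were low. Their part in the values of Dlk1 and Meg3 was not tested.

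**Figure D5:**
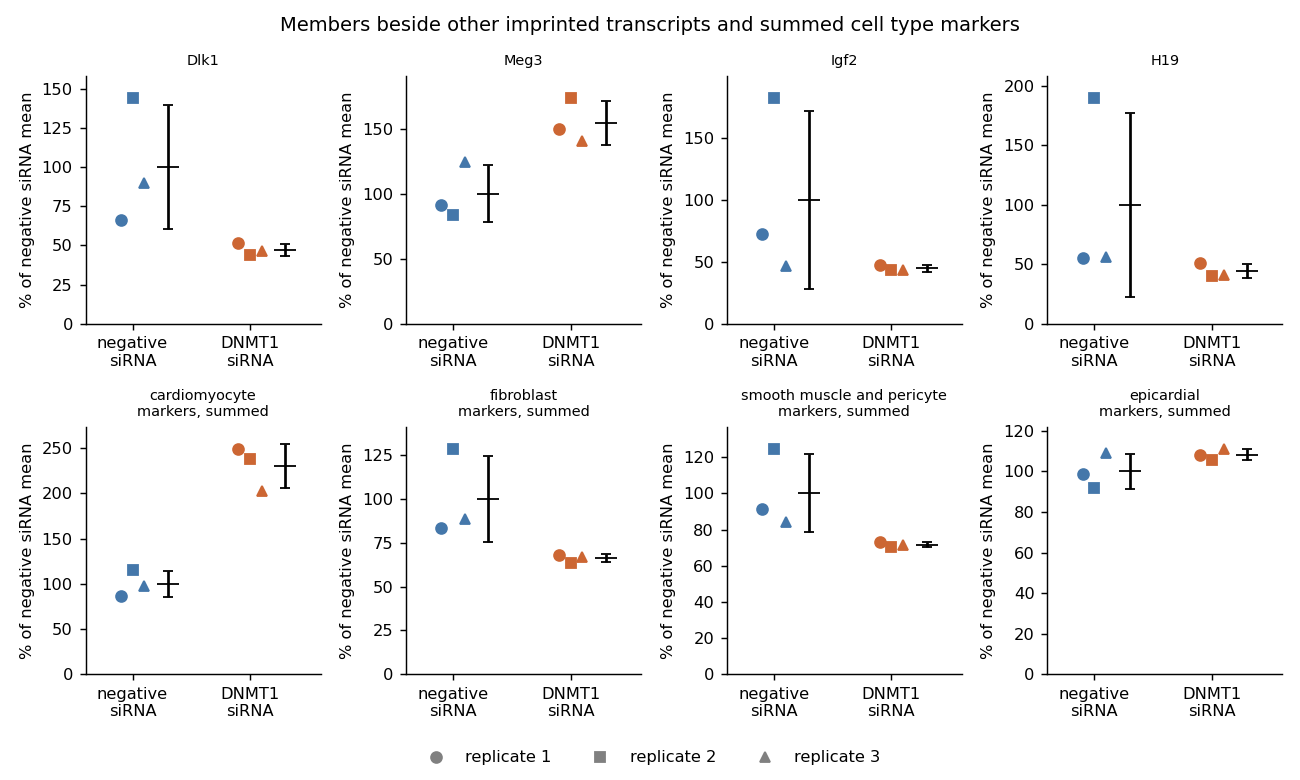
Levels of Dlk1, Meg3, Igf2 and H19 and of 4 summed marker lists in each library, in percent of the mean of the negative siRNA libraries (y axis, from 0), with the mean ± SD in black. Negative siRNA replicate 2 (blue square) is the highest negative library for Dlk1, Igf2, H19 and the cardiomyocyte, fibroblast and smooth muscle markers, and cardiomyocyte markers exceed 200% in the 3 DNMT1 siRNA libraries.

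Genes tied to the function of the locus were read from 6 lists. Regulators of imprints comprised 11 tested genes of 12. They included guards of imprints, such as the zinc finger protein gene Zfp57 and its partner Trim28. Other genes of the list, such as those of the TET methylcytosine dioxygenases, are not guards. EdgeR called 0, with 5 at an unadjusted p below 0.05, and DESeq2 and limma-voom also called 0. Without negative siRNA replicate 2, Tet1 was called higher. Trim28, a corepressor, stood at -0.28 ± 0.06 (adjusted p = 0.0284) under the limit on fold change, and Tet3, a methylcytosine dioxygenase, at -0.22 ± 0.07 (adjusted p = 0.0734, edgeR's quasi-likelihood test). The list's median log2 fold change was 0.02.

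DLK1 is related to the Notch ligands, and 17 of 18 Notch and DLK1-linked genes were tested. None rose and 2 fell by edgeR, with a median of -0.08. DESeq2 called 3 lower, Dlk2 among them, and limma-voom 1, Cebpa. The calls of both genes were lost without DNMT1 siRNA replicate 1 or 2, and that of Hey1 also without DNMT1 siRNA replicate 3 or negative siRNA replicate 2 or 3, while Notch3 was called higher without negative siRNA replicate 2. Cebpa, a transcription factor of adipocyte differentiation, had 139, 217 and 229 normalized counts with negative siRNA and 63.0, 56.9 and 88.3 with DNMT1 siRNA (log2 fold change -1.50 ± 0.25, adjusted p = 0.00862). Hey1, a Notch target, had 10.5, 22.1 and 18.7 against 1.34, 5.83 and 3.27 (-2.26 ± 0.56, adjusted p = 0.0357), on few counts. The most abundant genes of the list, the receptor Notch2 (-0.17 ± 0.09, adjusted p = 0.238) and the protease gene Adam17 (-0.09 ± 0.07, adjusted p = 0.395, edgeR's quasi-likelihood test), were not called.

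Of 16 genes of thyroid hormone supply and response, the pathway in which Dio3 acts, 14 were tested. Of these 5 rose and 0 fell by edgeR, DESeq2 and limma-voom alike, with a median of 0.34 and between 3 and 6 rising when 1 library was left out. The lowest, 3, came without DNMT1 siRNA replicate 1. The receptor gene Thrb went from 37.4, 33.1 and 54.4 to 133, 139.9 and 139 normalized counts (log2 fold change 1.73 ± 0.21, adjusted p = 0.00286), and Hr, a corepressor gene induced by thyroid hormone, changed by 1.96 ± 0.29 (adjusted p = 0.00596). The other 3 were genes of cardiac muscle, the calcium pump Atp2a2 (0.65 ± 0.09, adjusted p = 0.00354), its regulator Pln (1.12 ± 0.18, adjusted p = 0.00796) and the pacemaker channel Hcn4 (0.91 ± 0.19, adjusted p = 0.0198, edgeR's quasi-likelihood test). They rose together with 9 of 12 cardiomyocyte markers. The most abundant uncalled genes of the list were Ncor1 (0.067 ± 0.065) and Rxra (0.015 ± 0.098). The receptor gene Thra was at 0.02 ± 0.13 and the activating deiodinase Dio2 at 0.80 ± 0.42, both uncalled.

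Other long noncoding RNAs were read for comparison with Meg3. Of 13 listed, 9 were tested, 2 rose and 0 fell, with a median of 0.33. The count was 0 without DNMT1 siRNA replicate 2 or 3, and Firre was also lost without DNMT1 siRNA replicate 1 or negative siRNA replicate 1. The 2 genes were Kcnq1ot1 (0.74 ± 0.16, adjusted p = 0.0229), an imprinted RNA made from the paternal chromosome, and Firre (0.79 ± 0.20, adjusted p = 0.0361), a nuclear RNA of the X chromosome. The abundant nuclear RNAs Malat1 and Neat1 were at 0.10 ± 0.22 and 0.53 ± 0.28 (adjusted p = 0.801 and 0.248, edgeR's quasi-likelihood test). The change of Meg3 was within the range of this list.

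Among 24 tested transcripts of other imprinted loci, of 27 listed, 1 rose and 0 fell by edgeR, with a median of -0.11 and 8 at an unadjusted p below 0.05. DESeq2 also called Cdkn1c, a growth inhibitor gene, lower, and limma-voom called 0 lower. Without negative siRNA replicate 3, edgeR called 2 lower, Cdkn1c and Igf2. Cdkn1c was at -0.89 ± 0.28 with all libraries (adjusted p = 0.0719, edgeR's quasi-likelihood test). The paper, which combined the calls of edgeR and DESeq2 under the same limits, reported Cdkn1c as lower after knockdown. The gene that rose was Mest, a paternally expressed gene, at 536, 623 and 531 against 1695, 1689 and 1680 normalized counts (log2 fold change 1.58 ± 0.08, adjusted p = 0.000192, edgeR's quasi-likelihood test). Dlk1 and Mest, both paternally expressed, thus moved in opposite directions.

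By profile over the 6 libraries, the genes most like Meg3 among 12662 were Zfp512b, Gm9109, Nudt12, Caskin2 and Tle2, with Pearson correlations of log2 CPM from 0.993 to 0.998, and 169 genes exceeded 0.95. Those most like Dlk1 were Cnpy3, Gnl1, Rom1, Steap1 and Zbtb25, with correlations from 0.995 to 0.999, and 303 genes exceeded 0.95. With 6 points in 2 groups, and with shared library depth and composition, such values are common and are given as a description.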

How the data were processed

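RNA-Seq was measured in 6 samples, 3 for each siRNA. Reads were checked with FastQC and aligned to mm10 by the authors with TopHat2. The deposited values are HTSeq counts on Ensembl genes, not normalized. Groups followed the sample titles. The members and gene lists were chosen with earlier results of these data known.

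The test over all genes used edgeR 4.0.16 in R 4.3.3 (TMM, filterByExpr with a minimum count of 10 and a minimum total of 15, quasi-likelihood F test, Benjamini-Hochberg adjustment over 15470 genes). Genes were called at an FDR below 0.05 and a fold change above 1.5. The SE was the log2 fold change divided by the root of the F value. Counts called normalized were scaled to a common effective library size. DESeq2 1.42.0, limma 3.58.1 with voom, other normalizations, filters and limits, a replicate block and leaving out each sample were alternatives. Single values were compared by exact permutation with scipy 1.17.1. The fit was tested on simulated data.

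Positions and exon lengths came from a newer GENCODE annotation of GRCm38, which held 42548 of the 43629 rows, and sequences from RefSeq (GRCm38.p6). Counting appeared to ignore strand, since of 239 genes with at least 100 exon bases that lay wholly under exons of the opposite strand, 205 (85.8%) had 0 counts in all 6 samples. Named genes were the members, other tested rows of the interval, the nearest 2 flanking genes on each side and any called, the called genes of each list with up to 2 of its most abundant uncalled genes, and the 5 genes most correlated with Meg3 and with Dlk1. Further genes outside this rule (Cyp46a1, Hhipl1, Tecpr2, Dio2, Thra, Zfp57, Cdkn1c, Igf2, Igf2r, Peg10, Dlk2, Notch3, Tet1, Tcf21, Thy1, Tek, Rgs5, Abcc9, Cspg4, Cnn1, Myh11) were named after their values were seen. Replicates of the same number did not deviate together (correlations of 0.0064, -0.0208 and 0.0274). Chi-square statistics per degree of freedom were 29.7 to 61.6 between negative siRNA replicates and 2.82 to 10.2 between DNMT1 siRNA replicates. So no 2 libraries of a group were copies, but the DNMT1 siRNA libraries, which held fewer reads, differed less from one another. Read totals of 13739561 to 35896018 limit the precision of rows with few counts.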

Additional observations from a re-analysis of the deposited data

Results flagged for a closer look

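Reads that fell on exons of more than 1 gene, which the counting assigned to no gene, made up a median of 6.093% of counted, ambiguous and unassigned reads with DNMT1 siRNA, against 3.62% with negative siRNA. All 3 DNMT1 siRNA libraries lay above all 3 negative libraries (means 6.15% ± 0.17 and 3.62% ± 0.03, SD, n = 3, exact permutation test, two-sided p = 0.1, the smallest possible). This share belongs to reads that the comparisons did not use, and it bears on every row of the locus that shares exons with a neighbour, Meg3 and Rtl1 among them. The genes to which these reads would belong cannot be told apart in the files.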

How the results depend on the processing

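The count of 1004 genes called was 1695 without the filter on low counts, 1928 without the limit on fold change and 420 at an FDR below 0.01, and it ranged from 367 to 1245 when 1 library was left out. Removing a DNMT1 siRNA library gave the lowest counts, 462, 367 and 459 for replicates 1 to 3. The 2 members called became 0 at an FDR below 0.01, and 0 to 2 without 1 library. With the replicate block they also became 0, although Meg3 (0.65) and Dlk1 (-1.01) kept their direction. Whether same-numbered samples shared a cell preparation is not stated, and the near-zero correlations of their deviations cannot decide it. The block changed the count of all called genes from 1004 to 798. Flanking genes called went from 0 to 2 without the filter (Cyp46a1 and Hhipl1), to 2 without the limit on fold change (Wars and Tecpr2), and to between 0 and 1 without 1 library. Listed genes called went from 14 to between 9 and 16 without 1 library, with 9 when DNMT1 siRNA replicate 1 or 2 was removed. Other rows of the locus stayed at 0 calls in every fit. The difference in the log2 ratio of Meg3 to Dlk1 lay between 1.24 and 1.87 without 1 library, at 1.66 with 0.5 CPM added, and at 1.49 for summed maternal over summed paternal members. Of the single-gene values under the alternatives, 865 stayed on the same side of the limits, 71 lost a call, 8 gained one and 0 of the called values turned sign. The cause of these changes was not tested, and 3 libraries per group and few counts on Dio3, Begain and the small RNA rows limit the precision.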
